A study of Schizosaccharomyces pombe with 36 samples.

Results

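In the genome of the fission yeast Schizosaccharomyces pombe, 11 places were examined from which replication forks set out in cells without Rif1 and, at 10 of them, hardly at all in wild type. They were selected on these libraries, for an initiation step that was larger in rif1 deletion than in wild type, and the 300 bp bins within 3000 bp of each make up 220 of the 41908 bins of the genome. All 11 were among the 536 initiation sites called when all libraries with a stated temperature were pooled. Each is called here by its nearest protein-coding gene. In coordinates of the RefSeq assembly ASM294v3, those of chromosome I are chrI:407401-413400, centred 556 bp from cuf1 (a copper-sensing transcription factor), chrI:1356601-1362600, 1532 bp from pas1 (a cyclin), chrI:1596301-1602300, 30 bp from SPAC23H4.05C, chrI:2659801-2665800, 187 bp from mug114 (a gene induced in meiosis), and chrI:4703401-4709400, 377 bp from klp3 (a kinesin). Those of chromosome II are chrII:888601-894600, 559 bp from erg1 (squalene monooxygenase of ergosterol synthesis), chrII:1076701-1082700, 255 bp from yea4, and chrII:2336101-2342100, 1312 bp from coa6 (an assembly factor of cytochrome c oxidase). The remaining ones there are chrII:3005401-3011400, 298 bp from ubc1 (a ubiquitin-conjugating enzyme), and chrII:3376501-3382500, 930 bp from SPBC3B8.08. Chromosome III has chrIII:2305801-2311800, centred 944 bp from dpe2.

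A eukaryotic chromosome carries more licensed origins than it uses, and most of them are passed by a fork from elsewhere before they fire, so they are called dormant. Rif1 brings protein phosphatase 1 to chromatin, where the phosphatase removes the marks that the Dbf4-dependent kinase puts on the replicative helicase, and origins near Rif1 are thereby held back. In fission yeast Rif1 binds telomeres and a set of sites on the arms that carry a G-rich consensus sequence able to fold into G-quadruplexes. Stn1 protects chromosome ends and helps complete their replication, and Taz1 binds the telomere repeat and places Rif1 there.

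The libraries are from polymerase usage sequencing, which cuts the genome at ribonucleotides that a mutant replicative polymerase leaves behind and so shows which polymerase made each strand. Every condition had 2 libraries from a strain with mutant Pol delta (gene cdc6) and 2 from a strain with mutant Pol epsilon (gene cdc20, allele M630F). The 9 conditions were rif1 deletion (cdc6 allele L591G, with rnh201 deleted), stn1-226 with a labelled rif1 deletion and stn1-226 alone (both with cdc6 allele I591G between lox sites, and rnh201 deleted with another marker), and wild type (L591G, with rnh201-RED, which the labels describe as defective in recognising ribonucleotides), each at 25 and 34 °C, plus taz1 deletion (L591G, rnh201-RED), whose temperature the labels leave out. Thus all the strains carried a changed rnh201, the ribonuclease H2 gene that would otherwise remove the ribonucleotides, and stn1-226 is a temperature-sensitive allele. The labels give a single strain for each polymerase within a condition, so the 2 replicates may be technical, and p-values measure only the spread between these libraries.

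Libraries held 2211932 to 25777570 ends, and 751 to 18681 ends lay within 3000 bp of a single site (median 6458). Over the rif1 gene, the rif1 deletion libraries had 0.0176 ± 0.0163 of the median bin's ends at 25 °C and 0.0119 ± 0.0076 at 34 °C (SD, n = 4 libraries each). The libraries labelled stn1-226 rif1 deletion had 1.10 ± 0.12 and 1.09 ± 0.08, against 1.21 ± 0.14 and 1.11 ± 0.03 in stn1-226, so the counts over the gene do not show the deletion that the label names. Bin by bin over the 16 bins touching rif1, the ratio to stn1-226 lay between 0.497 and 1.188 at 25 °C and between 0.684 and 1.115 at 34 °C. The label is kept as given although these counts do not show the deletion, and the libraries are called the labelled double mutant below. Over rnh201, wild type had 0.19 ± 0.06 and 0.21 ± 0.03 of the median bin's ends at 25 and 34 °C. The rif1 deletion libraries had 0.19 ± 0.04 and 0.18 ± 0.02 there. Taz1 deletion had 0.08 ± 0.03, and the conditions with stn1-226 had 0.09 to 0.10. Counts over rnh201 were thus low in every condition, including those labelled rnh201-RED. Replicate 2 of rif1 deletion at 34 °C had smaller steps than replicate 1 at all 11 sites and at 515 of the other 525, where the median was 0.73 log2 in replicate 2 and 1.12 in replicate 1.

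Of the 11 sites, 8 had a match to the published Rif1 consensus within 1500 bp, on either strand, and 3 of the 8 had a pair of matches. The stretches are shown because the consensus was not used to choose the sites. Each line is from the RefSeq genome ASM294v3, 5′ to 3′ on the strand named, with the consensus matches in capitals. The single-match stretches are chrI:1600183-1600233 (minus strand, inside SPAC23H4.05C), chrI:4706071-4706121 (plus, between pmo25 and klp3), chrII:891420-891470 (minus, left of erg1), chrII:3008792-3008842 (plus, right of ubc1) and chrII:3380604-3380654 (plus, between SPBC3B8.08 and dsd1).
SPAC23H4.05C: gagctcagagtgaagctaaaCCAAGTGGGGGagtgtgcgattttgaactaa
klp3: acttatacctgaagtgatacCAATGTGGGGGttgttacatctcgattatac
erg1: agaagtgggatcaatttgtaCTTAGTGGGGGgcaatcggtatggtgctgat
ubc1: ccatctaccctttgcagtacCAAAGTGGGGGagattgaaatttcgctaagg
SPBC3B8.08: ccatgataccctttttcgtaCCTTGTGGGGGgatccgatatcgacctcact

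The paired matches beside mug114 lay 79 bp apart from start to start (chrI:2663734-2663863, plus strand, inside mug114). By the same measure those beside yea4 lay 70 bp apart (chrII:1080034-1080154, minus strand, between yea4 and mas5). Those beside dpe2 lay 92 bp apart (chrIII:2309752-2309894, printed on the plus strand, between dpe2 and SPCC965.13). At mug114 and yea4 both copies read the same way, and at dpe2 they pointed in opposite directions, so that the first reads as its reverse complement.
mug114: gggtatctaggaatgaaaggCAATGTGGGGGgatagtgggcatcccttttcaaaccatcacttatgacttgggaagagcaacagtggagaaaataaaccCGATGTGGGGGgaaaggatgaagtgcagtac
yea4: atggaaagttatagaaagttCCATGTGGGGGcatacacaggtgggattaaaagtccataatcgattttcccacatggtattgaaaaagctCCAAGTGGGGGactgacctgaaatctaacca
dpe2: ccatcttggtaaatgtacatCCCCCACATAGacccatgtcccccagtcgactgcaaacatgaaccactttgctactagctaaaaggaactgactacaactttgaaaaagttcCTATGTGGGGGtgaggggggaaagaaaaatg

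The nearest match lay 156 bp from the site at erg1, 305 bp at klp3, 358 bp at yea4 and 416 bp at ubc1, and between 907 and 1128 bp away at the other 4. A site's position is known only to the bin, and its step is summed over 3000 bp on each side. Within 1000 bp, 7 of 11 sites (63.6%) held a match, against 3 of the other 525 called sites (0.57%), and 0.77% of genome positions lie that close to one of the 57 matches. Within 5000 bp the counts were 8 of 11 and 21 of 525 (4.00%), with 3.69% of the genome as near. No test was made of these shares.

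The sites at cuf1 and pas1 had no consensus match within 1500 bp but had the core GTGGGGG, at 272 and 1253 bp. They are shown, with the core in capitals, because they hold the core of the consensus without a full match. The stretches are chrI:410650-410696 (plus strand, between cuf1 and rod1) and chrI:1358325-1358371 (minus strand, between fin1 and pas1).
cuf1: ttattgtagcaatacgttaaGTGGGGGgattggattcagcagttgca
pas1: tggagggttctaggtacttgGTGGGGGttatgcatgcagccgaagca

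The core, searched on both strands and contained in every consensus match, was within 2000 bp of 10 of 11 sites and of 34 of the other 525 (6.48%), and 7.16% of genome positions are that near to one of its 270 matches. The site at coa6 was the exception, with the nearest core 29022 bp away. A run of 5 G, which is part of both motifs, was within 2000 bp of all 11 and of 315 of the other 525.

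The 11 sites otherwise sat where fission yeast origins usually sit. All 11 positions were intergenic with respect to protein-coding genes, as were 89.5% of the other called sites. Divergent genes flanked 6 of them, 4 lay between genes read the same way and 1, at mug114, between convergent genes, and 49.9% of the other sites were divergent. Median AT content was 74.0% in the central 300 bp and 70.9% in 1 kb, against 73.0% and 71.3% at the other sites. The site at coa6 had the least AT-rich centre, at 55.3%, and SPAC23H4.05C the least AT-rich kilobase, at 62.5%. The sites lay 144.1 kb (dpe2) or more from a chromosome end. The closest other called site was a median of 19.8 kb away, against 12.6 kb for the other sites.

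The measure of firing is the initiation step. It sets the ends that departing forks leave on their strand and flank against those left by arriving forks, as a log2 ratio, averaged over a Pol delta and a Pol epsilon library of the same replicate number, here called a pair, so that each condition has 2 pairs. A step of 0 means that forks pass through. In rif1 deletion the steps of the 11 sites had a median of 1.83 at 25 °C and 1.32 at 34 °C, against 0.08 and 0.08 in wild type; without replicate 2 of rif1 deletion the median at 34 °C was 1.73. These are the values the sites were selected on, so they are given as a description. The site at SPBC3B8.08 had 2.13 and 2.23 in the 2 rif1 deletion pairs at 25 °C, against -0.05 and 0.21 in wild type. The site at SPAC23H4.05C had the smallest steps of the 11 in rif1 deletion, 1.16 and 1.33, against -0.28 and -0.15 in wild type. At neither place did the pairs of rif1 deletion and wild type overlap. Both rif1 deletion pairs were above both wild type pairs at all 11 sites at both temperatures, as they were at 27.4% of all 536 sites at 25 °C and 8.21% at 34 °C. By single library the groups were apart at 11 sites at 25 °C and at 10 at 34 °C, where cuf1 overlapped.

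**Figure D1:**
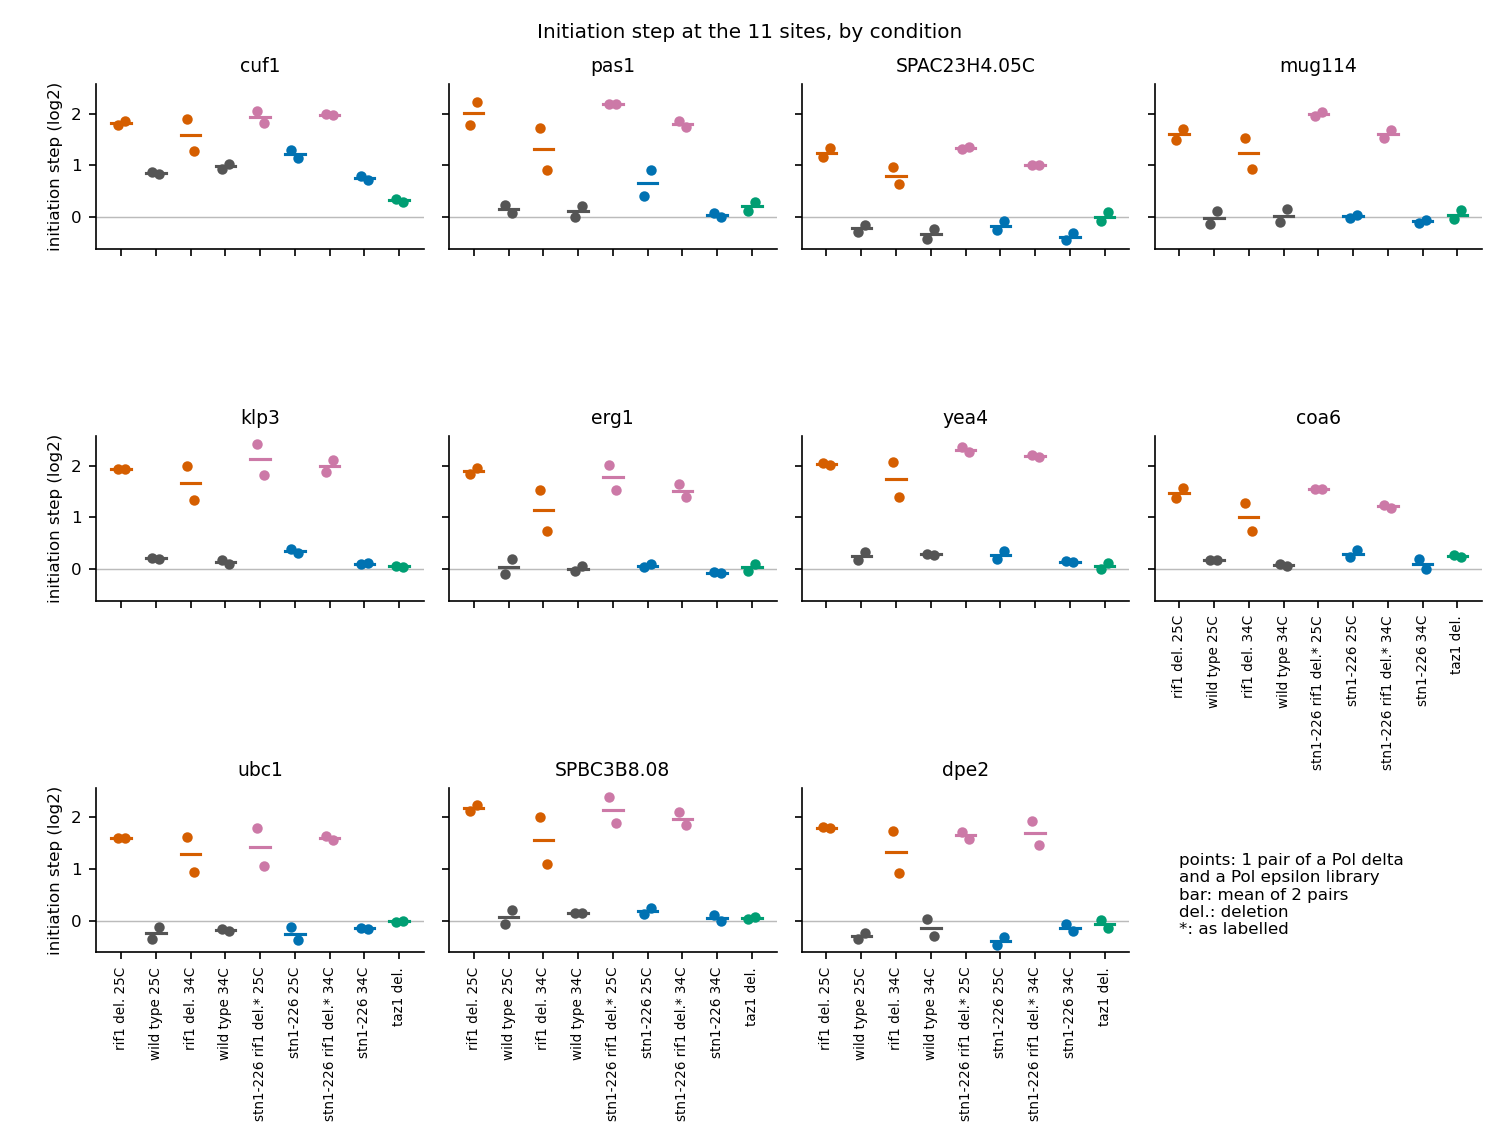
Initiation step (log2, vertical axis) of each of the 11 sites in the 9 conditions, with a point for each pair of a Pol delta and a Pol epsilon library and a bar at the mean of 2 pairs. In rif1 deletion and in the labelled double mutant the points lie between 0.64 and 2.42. At 10 sites the points of wild type, stn1-226 and taz1 deletion lie between -0.46 and 0.92. The exception is cuf1, whose wild type points lie between 0.83 and 1.03. Its stn1-226 points lie between 0.73 and 1.30, and its taz1 deletion points are 0.36 and 0.30.

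The exception to the name dormant was the site at cuf1. It had steps of 1.79 and 1.87 in the rif1 deletion pairs at 25 °C, against 0.87 and 0.83 in wild type. At 34 °C it had 1.89 and 1.28 in rif1 deletion, against 0.94 and 1.03 in wild type, where the medians of the other 525 sites were 1.07 at 25 °C and 1.12 at 34 °C. The wild type steps of cuf1 were thus below those medians and above the wild type steps of the other members. Its difference between rif1 deletion and wild type ranked 20 of 536 sites at 25 °C and 22 at 34 °C, below sites that were not selected. With both temperatures averaged, the 10 other members ranked 1 to 10, ending with coa6 at 1.12 log2, and the first site outside them was nif1 at 1.10, where the wild type steps were 0.42 and 0.80. The next were rpa12 at 1.07 and gap1 at 1.05.

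The choice did not use the step of the labelled double mutant against stn1-226, whose strains share a background. All 11 sites rose at both temperatures. The fitted changes lay between 0.73 and 2.04 log2 (median 1.71) at 25 °C and between 1.11 and 2.04 (median 1.74) at 34 °C, while the medians over all 536 sites were -0.10 and -0.03. By edgeR's quasi-likelihood test with Benjamini-Hochberg adjustment over all sites, adjusted p of the 11 was 5.2e-06 to 0.0216 at 25 °C and 1.81e-06 to 0.0129 at 34 °C. Of all sites, 4.29% were called higher and 2.24% lower at 25 °C, and 5.41% and 1.12% at 34 °C, so that 11 of the 23 sites called higher at 25 °C and 11 of the 29 at 34 °C were members. Both labelled pairs were above both stn1-226 pairs at all 11 sites at each temperature, as they were at 16.4% of all sites at 25 °C and 20% at 34 °C. By single library the groups were apart at 9 of 11 sites at 25 °C, with pas1 and SPAC23H4.05C overlapping, and at all 11 at 34 °C. The share of all sites apart by single library was not computed. The positions are maxima of pooled libraries that include these. Of 544 sites called without any library labelled rif1 deletion, only 1 lay within 3000 bp of a member. Most members were thus called sites only through libraries where their step is high, the labelled double mutant among them. The p-values and the members' shares of the sites called higher are therefore not independent of how the sites were found.

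**Figure D2:**
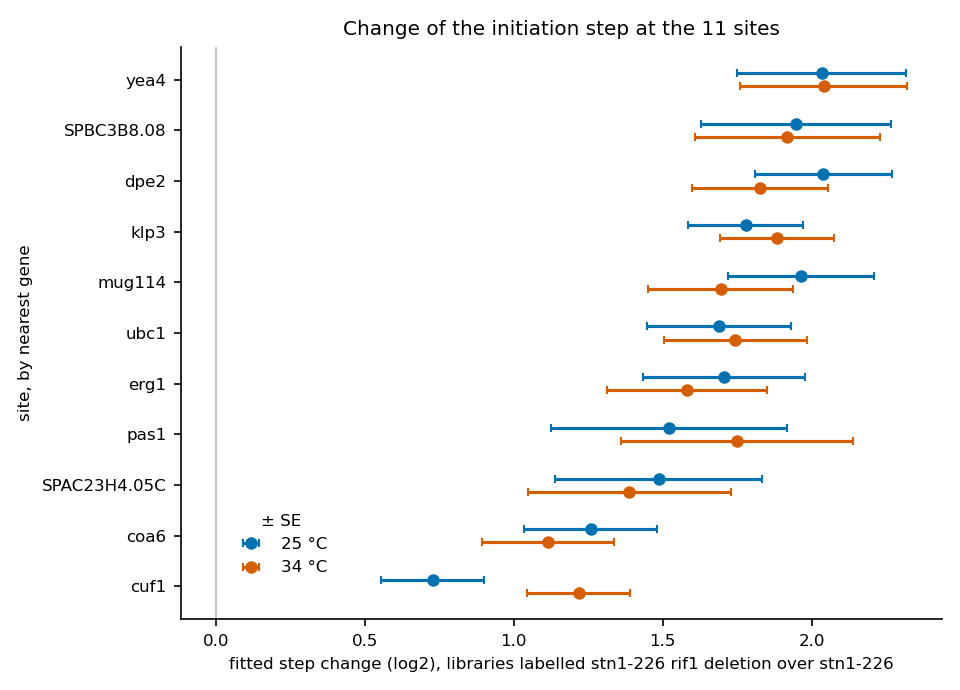
Fitted change of the initiation step (log2, horizontal axis, ± SE) at each of the 11 sites, named by nearest gene and ordered by the mean of 25 and 34 °C, for the labelled double mutant over stn1-226. All points lie above 0, from 0.73 at cuf1 at 25 °C to 2.04 at dpe2 at 25 °C and at yea4 at 34 °C.

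With both temperatures averaged, the change was largest at yea4. The site there had steps of 2.35 and 2.27 at 25 °C and of 2.21 and 2.16 at 34 °C in the labelled double mutant, against 0.20 and 0.35, and 0.15 and 0.13, in stn1-226. Every labelled pair was above every stn1-226 pair, by a fitted 2.03 ± 0.28 and 2.04 ± 0.28 log2 (SE).

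At SPBC3B8.08 the steps were 2.39 and 1.90 at 25 °C, and 2.11 and 1.85 at 34 °C, in the labelled double mutant pairs. They were 0.13 and 0.26, and 0.12 and -0.00, in the stn1-226 pairs. The groups were far apart, with fitted changes of 1.95 ± 0.32 and 1.92 ± 0.31.

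The site at dpe2, 144.1 kb from the end of chromosome III, had 1.73 and 1.58 at 25 °C and 1.92 and 1.46 at 34 °C in the labelled pairs, against -0.46 and -0.31, and -0.07 and -0.20, in stn1-226. A negative step means that more forks ran into the place than left it, and the sign turned at this site. The fitted changes were 2.04 ± 0.23 and 1.83 ± 0.23.

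The same turn of sign was seen at ubc1, where the labelled pairs had 1.80 and 1.07 at 25 °C and 1.65 and 1.56 at 34 °C. The stn1-226 pairs had -0.13 and -0.36, and -0.13 and -0.15. The pairs at 25 °C differed from each other more than at any other member, and both stayed above those of stn1-226.

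At klp3 the labelled pairs had 2.42 and 1.82 at 25 °C and 1.87 and 2.10 at 34 °C, against 0.40 and 0.32, and 0.09 and 0.12, in stn1-226. Its adjusted p was the lowest of the 11 at 34 °C, 1.81e-06 by edgeR with Benjamini-Hochberg adjustment, for a change of 1.88 ± 0.19. At mug114 the labelled pairs had 1.95 and 2.03, and 1.54 and 1.69, against -0.10 to 0.05 in the 4 stn1-226 pairs. At erg1 the labelled pairs had 2.02 and 1.53, and 1.64 and 1.39, and the stn1-226 pairs lay between -0.08 and 0.09. At mug114 and erg1 the stn1-226 steps lay near 0 at both temperatures, and at klp3 they did so at 34 °C but not at 25 °C. The labelled pairs of these 3 sites were all above 1.38.

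The remaining 4 sites had the smallest fitted changes or the widest errors. At pas1 the labelled pairs had 2.19 and 2.19 at 25 °C and 1.86 and 1.74 at 34 °C, and the stn1-226 pairs 0.42 and 0.92, and 0.08 and 0.01. The 0.92 of stn1-226 replicate 2 came from Pol delta at 2.19, with Pol epsilon at -0.36, and 34 °C over 25 °C was not called in stn1-226 at pas1 (adjusted p = 0.619 by edgeR). The SE at pas1, 0.40 at 25 °C, was the largest of the 11. At SPAC23H4.05C, the weakest member in the labelled double mutant, the labelled pairs had 1.31 and 1.36, and 1.01 and 1.01, against -0.24 and -0.08, and -0.44 and -0.31. All 4 stn1-226 pairs there were below 0, and the changes were 1.49 ± 0.35 and 1.39 ± 0.34. The polymerases differed at SPAC23H4.05C too in replicate 2 at 25 °C. Pol delta had 0.815 and Pol epsilon -0.969 in stn1-226, and 2.35 and 0.36 in the labelled double mutant. In stn1-226 replicate 2 at 25 °C, Pol delta was above 0 and Pol epsilon below 0 also at mug114, erg1, yea4, coa6 and SPBC3B8.08. At 34 °C the means had the reverse signs at pas1, mug114, klp3, erg1, yea4, ubc1 and SPBC3B8.08, in stn1-226 and in wild type. Mug114 had -0.52 for Pol delta and 0.36 for Pol epsilon in stn1-226, and -0.43 and 0.49 in wild type. Both were below 0 at SPAC23H4.05C and dpe2 and above 0 at cuf1 and coa6. Steps near 0 can thus be averages of opposite signs.

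At coa6, which had neither motif nearby, the labelled pairs had 1.56 and 1.55 at 25 °C and 1.24 and 1.18 at 34 °C, against 0.23 and 0.36, and 0.19 and 0.00. Its changes, 1.26 ± 0.22 and 1.11 ± 0.22, were smaller than those of the 8 sites with a consensus match. At cuf1 the labelled pairs had 2.06 and 1.82, and 1.99 and 1.97, against 1.30 and 1.14, and 0.80 and 0.73. Both groups had a step at cuf1, the labelled one the larger, by 0.73 ± 0.17 at 25 °C and 1.22 ± 0.17 at 34 °C.

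These calls rest on both polymerases and on the spread shared by all conditions. Calls among the 11 are given below for each alternative, without the share of all sites called under it. A lost call is thus not read as particular to the 11 sites. In the Pol delta libraries alone 9 of 11 sites were called at 25 °C and 8 at 34 °C, and in the Pol epsilon libraries alone 0 and 4, although the median changes in Pol epsilon were 1.49 and 1.81. With only the compared groups fitted at 25 °C, 5 were called. Leaving out 1 library at a time at 25 °C left 9 calls without stn1-226 Pol delta replicate 1, 8 without stn1-226 Pol epsilon replicate 2, and, of the labelled double mutant, 10 without Pol delta replicate 1, 9 without Pol delta replicate 2 and 8 without Pol epsilon replicate 1. The sites lost were among cuf1, pas1 and SPAC23H4.05C, with adjusted p by edgeR of 0.0527 to 0.141. At 34 °C SPAC23H4.05C alone was lost, without stn1-226 Pol delta replicate 1 (adjusted p by edgeR 0.076), without stn1-226 Pol epsilon replicate 2 (0.0588), and without labelled double mutant Pol delta replicate 2 (0.0517) or Pol epsilon replicate 1 (0.0522).

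No difference between the changes at 34 and 25 °C was called at any of the 11 sites. The difference of the 34 °C change from the 25 °C change lay between -0.27 (mug114) and 0.49 (cuf1) with a median of -0.03, and 0 of 11 sites and 0% of all sites passed edgeR's test with Benjamini-Hochberg adjustment, nor did a member have an unadjusted p under 0.05. The largest difference, at cuf1, was 0.49 ± 0.24 (SE, unadjusted p = 0.0572 and adjusted p = 1.0 by edgeR). In stn1-226 itself, 34 °C over 25 °C gave 0 calls among the 11 sites and 0% of all sites by the same test. Members had changes of -0.62 (pas1) to 0.25 (dpe2) with a median of -0.14, against -0.17 over all sites, and cuf1 was the 1 member with an unadjusted p under 0.05 (-0.46 ± 0.17 SE, adjusted p = 0.383 by edgeR). TMM factors moved the median of all sites to -0.004 and that of the 11 sites to 0.03. In the Pol delta libraries alone 176 of all sites were called lower at 34 °C and 1 higher, with cuf1 and pas1 among the lower.

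No change was called in the number of ends at the sites. In the labelled double mutant over stn1-226, total ends within 3000 bp differed by -0.11 to 0.16 log2 at 25 °C (median 0.05) and by -0.04 to 0.11 at 34 °C (median 0.01). None of the 11 sites and 0% of all 536 sites were called by edgeR with Benjamini-Hochberg adjustment, and 0 members had an unadjusted p under 0.05. DESeq2 called 0 members and 8 other sites at 34 °C.

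The share of forks moving rightward, from the share of Pol epsilon among both polymerases on each strand, gives the same places a measure in percent. The difference between the right and the left flank of a site is here called its efficiency, in percentage points. In the labelled double mutant the 11 sites had a median efficiency of 58.0 points at 25 °C and 52.2 at 34 °C, against 7.4 and 1.1 in stn1-226. In rif1 deletion the medians were 55.9 and 41.1, against 3.3 and 3.0 in wild type. The other 525 called sites had medians of 37.2 and 36.4 in the labelled double mutant and 39.6 and 34.9 in stn1-226. The most efficient member was yea4, at 65.9 ± 1.8 points (SD, n = 2 pairs) in the labelled double mutant at 25 °C, against 9.4 ± 3.8 in stn1-226. The least efficient was SPAC23H4.05C, at 33.7 ± 0.04 points in the labelled double mutant at 34 °C, against -12.7 ± 3.0 in stn1-226.

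The direction in which forks crossed the sites in stn1-226 differed from site to site. Averaged over both flanks at 25 °C, SPBC3B8.08 had 48.7% rightward forks in the labelled double mutant, against 69.7% in stn1-226. At dpe2 the shares were 57.4% in the labelled double mutant, against 69.3%, and at ubc1 54.7%, against 67.3%. At these 3 sites most forks came from the left in stn1-226. Forks from the right prevailed at klp3, with 50.1% rightward in the labelled double mutant, against 38.3% in stn1-226.

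The difference in fork direction reached well beyond the sites. In blocks of 3 kb centred 7.5 kb to the left, the share of rightward forks in the labelled double mutant minus that in stn1-226 had a median of -31.4 points at 25 °C and -30.7 at 34 °C. At 7.5 kb to the right the medians were 29.2 and 29.3 points. All 11 sites had this direction at both distances and temperatures. To the left it held for all 11 sites out to 19.5 kb at both temperatures, where the median differences were -13.1 and -8.6 points. To the right it held for all 11 out to 19.5 kb at 25 °C and out to 13.5 kb at 34 °C (23.6 points), and at 28.5 kb the medians were 6.4 and 5.0.

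**Figure D3:**
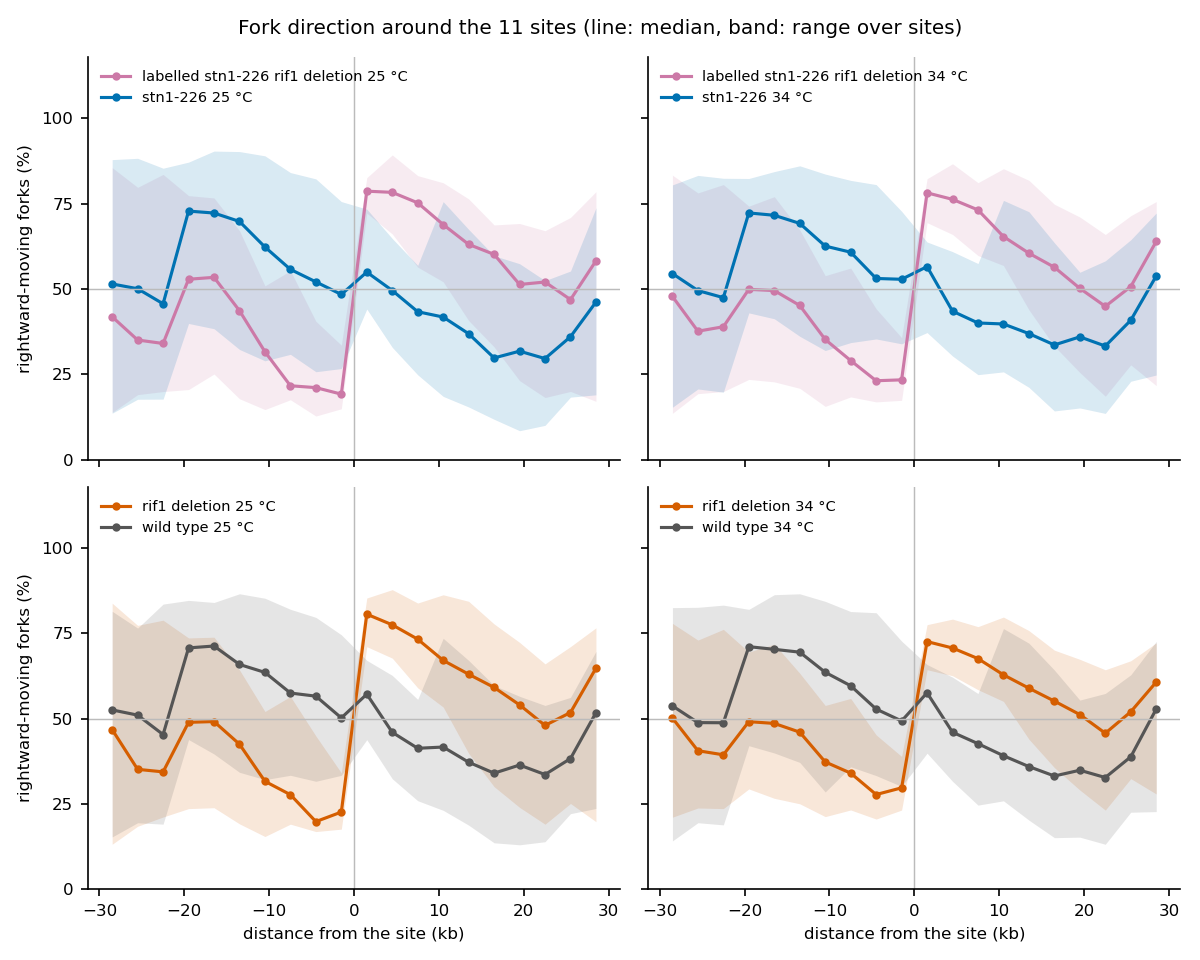
Share of rightward-moving forks (%, vertical axis) in 3 kb blocks by distance from the site (kb, horizontal axis), as the median (line) and range (band) over the 11 sites, for the labelled double mutant and stn1-226 (top) and rif1 deletion and wild type (bottom), at 25 °C (left) and 34 °C (right). In rif1 deletion and in the labelled double mutant the line jumps upward at the site, and in stn1-226 and wild type its rise there is small and it slopes downward across the region.

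The turn was seen at single sites as well. At dpe2, 7.5 kb to the left, 55.3% of forks moved rightward in the labelled double mutant at 25 °C, against 84.1% in stn1-226, and 7.5 kb to the right 77.7%, against 39.5%. At SPBC3B8.08 the left block had 21.6%, against 79.5%, and the right block 83.2%, against 54.0%. At dpe2 this block was the only one of the 7 left blocks out to 19.5 kb with more than 50% rightward forks in the labelled double mutant, and those beside it had 40.5% at 4.5 kb and 25.8% at 10.5 kb.

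The next called site on each side of the 11, 4.5 to 45.6 kb away, gave few calls. Of the other 503 sites, 12 rose and 11 fell at 25 °C, and 18 rose and 5 fell at 34 °C. Of these 22 neighbours 0 rose at either temperature and 1 fell, which was SPCC965.09, 8.7 kb left of dpe2. Its steps were 0.89 in the labelled double mutant and 1.41 in stn1-226 at 25 °C, and 0.86 and 1.29 at 34 °C, with changes of -0.52 and -0.43 (adjusted p = 0.0166 and 0.0475 by edgeR with Benjamini-Hochberg adjustment). The median change of the 22 was -0.16 at 25 °C and -0.10 at 34 °C, against -0.11 and -0.03 at the other 503 sites. Below 0 were 16 and 14 of the 22, and 344 and 284 of the 503. The nearest neighbours of all were erv25, 4.5 kb right of SPAC23H4.05C, with changes of -0.07 and 0.00, and nup40, 8.1 kb left of pas1, with -0.24 and -0.27.

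Other sites rose too in the labelled double mutant over stn1-226. The 5 with the largest fitted change, both temperatures averaged, were SPAC25A8.03C (1.21 log2), rpa12 (a subunit of RNA polymerase I, 1.17), nif1 (1.16), gap1 (a GTPase-activating protein of Ras, 1.07) and erf2 (1.07), where the 11 members had 0.97 (cuf1, rank 19 of all sites) to 2.04 (yea4, rank 1). SPAC25A8.03C and nif1 had a consensus match at 700 and 624 bp, while the nearest was 57156 bp or farther from the other 3. By edgeR with Benjamini-Hochberg adjustment SPAC25A8.03C, nif1 and erf2 were called at both temperatures, and rpa12 (adjusted p 0.103 and 0.0343) and gap1 (0.147 and 0.0187) at 34 °C alone.

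The consensus alone did not go with such a change everywhere. The 57 matches fall at 47 places when those within 2000 bp are joined. At the 8 places beside a member, the step at the match itself was higher in the labelled double mutant than in stn1-226 by 1.24 to 1.88 log2 at 25 °C and 1.12 to 1.85 at 34 °C. At 35 places with no called site within 1500 bp, the difference was -0.21 to 1.70 (median 0.23) and -0.12 to 1.60 (median 0.29), and at 4 beside other called sites -0.22 to 1.19 and 0.18 to 1.11. The members were chosen for a step that is high without Rif1, so no test was made between these groups. The step sums 3000 bp on each side, so the values at the 8 places largely recount those of the members. Places with no called site lack, by definition, a called maximum in pooled libraries that include the labelled double mutant.

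**Figure D4:**
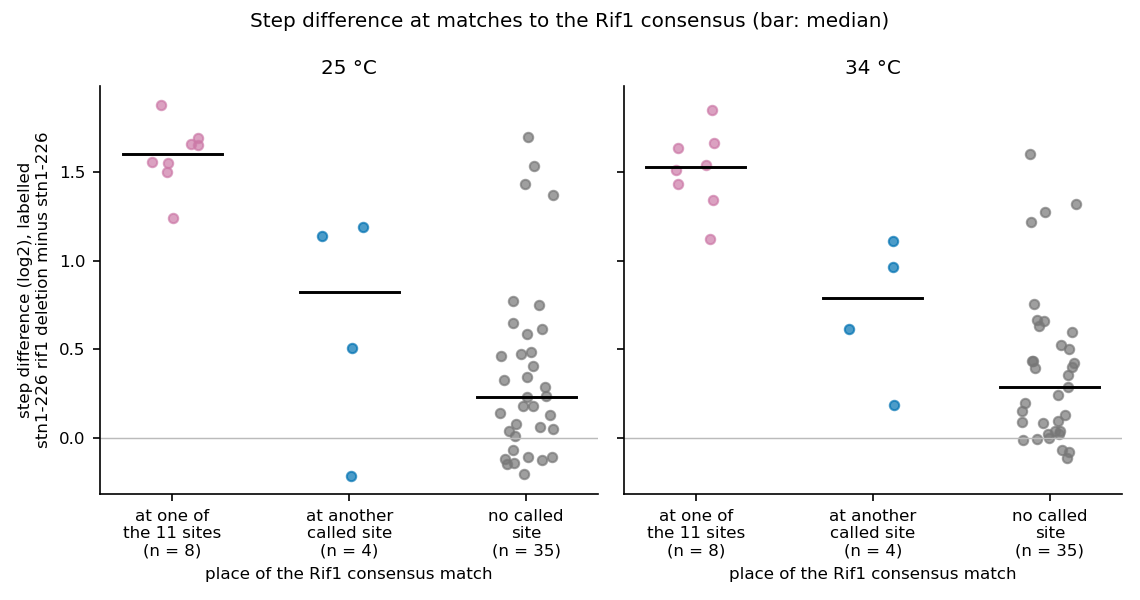
Difference of the step (log2, vertical axis) between the labelled double mutant and stn1-226, measured at each of 47 places with a match to the Rif1 consensus, at 25 °C (left) and 34 °C (right). Points are places, grouped by whether one of the 11 sites, another called site or no called site lies within 1500 bp, and bars are medians (1.61, 0.82 and 0.23 at 25 °C).

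In stn1-226 on its own the steps were near those of wild type. The 11 differences of stn1-226 from wild type had a median of 0.05 log2 at 25 °C (0.13 at the other 525 sites) and of -0.07 at 34 °C (-0.05). The largest was at pas1 at 25 °C, 0.51, which is a site with discordant pairs in stn1-226. The libraries labelled stn1-226 rif1 deletion differed from rif1 deletion by a median of 0.09 at 25 °C and 0.38 at 34 °C, against 0.08 and 0.20 at the other sites. Without replicate 2 of rif1 deletion at 34 °C, a comparison added after seeing the data, the differences at 34 °C lay between -0.07 and 0.11 with a median of 0.004, and the other sites had a median of 0.01. The strains of these comparisons also differ in background and in the marker at rnh201, and no test was made.

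In taz1 deletion the 11 sites had steps of -0.06 (dpe2) to 0.33 (cuf1), with a median of 0.05. In the same libraries the other 509 sites with values had a median of only 0.26, against 1.07 in wild type at 25 °C and 1.12 at 34 °C. Steps were thus small at nearly all places in these libraries, and cuf1, which had 0.36 and 0.30, was below its wild type level as well. Whether taz1 deletion acts on the 11 sites was not tested.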

How the data were processed

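Per the labels' protocols, DNA of 9 conditions was cut with alkali at incorporated ribonucleotides, sized and sequenced. The 72 tables that the authors deposited for 36 libraries hold whole counts of ends in bins of 300 bp, 1 table a strand, with no scaling applied. Reads were aligned with Bowtie2, per the submitters' processing notes; version and build: not given in the sources used here. Bins were placed on ASM294v3 with starts of 50000 bp in taz1 deletion and of 15000 bp on chromosome III where that had 8084 bins, and placement was checked against base content, where it was best on all chromosomes in 30 libraries. The exceptions in stn1-226 were Pol delta replicate 1 at 25 °C and both polymerases of replicate 2 at 34 °C. The others were replicate 2 of rif1 deletion Pol delta at 34 °C, wild type Pol delta at 34 °C and wild type Pol epsilon at 25 °C. The members and all lists, motifs included, were chosen with earlier results of these data known.

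Sites were local maxima over 10 bins of the pooled step above 0.356 log2, which is 20% of the 99th percentile; 10 bins on each flank were summed. For steps, the quasi-likelihood test of edgeR 4.0.16 (R 4.3.3) took the leaving and entering counts of 32 libraries (taz1 deletion left out) as columns, with the library as a block and 16 residual degrees of freedom, for the mean of Pol delta and Pol epsilon. Total ends were scaled by TMM. Sites with a mean under 10 ends were left out, and the threshold was an adjusted p of 0.05 (Benjamini-Hochberg). On simulated counts for the step change at a single temperature over 536 sites, 90 of 100 sites changed by 1 log2 were called. So were 26 of 100 changed by 0.5 log2 and 3 of 336 unchanged ones. These rates were not obtained separately for each temperature. DESeq2 1.42.0 and limma 3.58.1 were alternatives. Every member was named by its nearest protein-coding gene in the RefSeq annotation; neighbours and the 5 other sites were named by rank. Places and values were computed with Python 3.11.15, numpy 2.4.6 and pandas 2.3.3 and drawn with matplotlib 3.10.9. Distances to centromeres were not used here.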

Additional observations from a re-analysis of the deposited data

How the results depend on the processing

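All 11 sites had a positive change in the labelled double mutant over stn1-226 under every alternative run, at both temperatures, and the limits are in the number called. For most alternatives the calls over all sites are not given beside these numbers. At 25 °C 11 were called by edgeR, against 0 in the Pol epsilon libraries alone and 5 with only the groups compared, and 8 to 11 with 1 library left out. At 34 °C 11 were called, against 4 in the Pol epsilon libraries alone, and 10 to 11 with 1 library left out. In stn1-226 at 34 °C over 25 °C 0 members were called, against 2 in the Pol delta libraries alone, where fewer libraries were fitted; leaving out 1 library gave 0 to 0. With the replicate block, a step term for the replicate number, 11 sites were called at each temperature and no call was changed; labels share only the number, and the replicate differences of the compared groups correlated across sites at 0.706 (25 °C) and 0.526 (34 °C). Flanks of 5 bins left 10 and 9 calls, while DESeq2, limma on pairs, TMM, flanks of 15 bins, no filter, and leaving out wild type replicate 2 at 25 °C each left 11 and 11. In 2 other tables the members were put in by position: with sites called without any library labelled rif1 deletion, of which 1 of 544 lay within 3000 bp of a member, 11 and 11 were called, and with windows at a fixed spacing 10 and 10. Over all sites, 12 were called lower at 25 °C, against 21 with TMM, 20 with DESeq2 and 6 with flanks of 5 bins, and 6 at 34 °C, against 10 with TMM. By efficiency in place of the step, both pairs of the labelled double mutant were above both of stn1-226 at all 11 sites at each temperature, as at 15.7% and 20.5% of all sites, and both of rif1 deletion above both of wild type, as at 25.9% and 8.21%. Depth limits single values, since a library held as few as 2211932 ends, and a site as few as 751.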

Other observations

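No called site lay within 1500 bp of 4 places that have a match to the Rif1 consensus and a difference of more than 1 log2 at both temperatures; these were picked out after their values were seen. At peg1 the step at the match was 1.31 at 25 °C and 0.92 at 34 °C in the labelled double mutant (stn1-226 rif1 deletion by label), against -0.39 and -0.36 in stn1-226. At sus1 it was 1.39 and 0.78, against -0.15 and -0.44. At SPAC6C3.03C it was 1.18 and 0.76, against -0.25 and -0.56, and at SPAC1B9.03C 0.65 and 0.91, against -0.72 and -0.69. The nearest called site was 6.5 to 14.0 kb from these places. All 4 had more forks running in than leaving in stn1-226, as at dpe2, ubc1 and SPAC23H4.05C among the 11 sites, and no test was made of them. Among the 4 places beside other called sites, SPCC338.18 had a consensus match and differences of -0.22 and 0.18 log2.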
